A study of Nematostella vectensis with 18 samples.

Results

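The gene set described here holds 150 genes of the sea anemone Nematostella vectensis whose transcripts had higher levels in Ncol3-positive tentacle cells than in the Ncol3-negative ones, and lower levels in Nep3-positive cells than in the Nep3-negative ones. It was chosen from bulk RNA-seq counts of 18 libraries of sorted cells. For each gene the difference of mean log2(CPM + 1) between positive and negative libraries was taken in each of the 2 reporter lines, where CPM is the TMM-scaled count of a gene set against the depth of its library. Genes had to reach a mean of 10 CPM in at least 1 group, which left 11677 gene IDs, and had to differ by at least 0.5 on the log2 scale in both of the named directions, which left 814. The 150 with the highest value of the smaller of both differences, called the rule value below, form the set. The table holds 24537 gene IDs, of which 23764 had any count. Both differences within the lines were used to choose the genes, so their values are given below as a description.

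Cells were sorted by fluorescence from dissociated tentacles of untreated adult polyps. The Ncol3::mOrange line gave 4 Ncol3-positive and 4 Ncol3-negative libraries, and the Nep3::mOrange line gave 5 Nep3-positive and 5 Nep3-negative libraries. All 18 libraries carry the same batch label, and the labels call the Nep3-positive cells nematocytes. Which cell types the negative gates hold is not given in the sources used here.

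Cnidocytes are the stinging and sticking cells of cnidarians, and each builds a pressurised capsule from its secretory pathway. Sea anemones have nematocytes, whose capsules carry venom and a piercing thread, and spirocytes, whose capsules hold an adhesive thread. Ncol3 is a minicollagen, one of the short collagens that make up the capsule wall, and Nep3 is a toxin of nematocytes, so a reporter driven by each promoter marks cells that make or have made a capsule of some kind. None of the gene IDs in the table matched an entry of the RefSeq gene table that was used (0 matches). The 150 genes are therefore given by ID, with no name, role, position or sequence, and no cell type marker other than the reporter could be looked up.

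Library totals lay between 8608957 and 11180654 counts in Ncol3-positive cells and between 5463324 and 13624512 in Ncol3-negative cells. They lay between 7627503 and 15269119 counts in Nep3-positive cells and between 7600919 and 14283046 in Nep3-negative cells. The reporter transcript mOrange2 averaged 975 ± 285 CPM in Ncol3-positive and 293 ± 73.3 CPM in Ncol3-negative libraries (SD, n = 4 each). This is a log2 fold change of 1.65, with SE 0.47 and adjusted p = 0.0129 by edgeR's quasi-likelihood test. In the Nep3 line it averaged 715 ± 156 CPM in positive and 85.9 ± 68.7 CPM in negative libraries (SD, n = 5 each), with a log2 fold change of 3.02, SE 0.44 and edgeR adjusted p = 2.78e-05. With counts scaled by library size alone, the value of the Ncol3 line was 0.92. Exact two-sided permutation tests on CPM gave p = 0.0286 and p = 0.00794, each the smallest that its design allows. Among Nep3-negative libraries mOrange2 was not even, with 185 and 131 CPM in replicates 4 and 5 and 31.7 to 45.2 CPM in the other 3.

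The set had a graded order over the 4 sorted populations. In 124 of the 150 genes the group means ran from Ncol3-positive as the highest through Nep3-negative and Ncol3-negative to Nep3-positive as the lowest. In a further 23 genes the last 2 changed places, in 2 genes Ncol3-negative lay above Nep3-negative, and in 1 gene, NV2.23070, Nep3-negative cells had the highest mean. The median gene of the set averaged 279 CPM in Ncol3-positive libraries, against 35.7 CPM in Ncol3-negative libraries. In the Nep3 line the median gene averaged 24.3 CPM in positive libraries, against 97.2 CPM in negative libraries. In most of these genes the positive cells of one line thus had the highest mean and the positive cells of the other had the lowest. The median of Nep3-positive libraries, 24.3 CPM, lay below the 35.7 CPM of Ncol3-negative libraries. In bulk libraries, fewer cells that make a transcript and less of it per cell cannot be told apart.

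**Figure D1:**
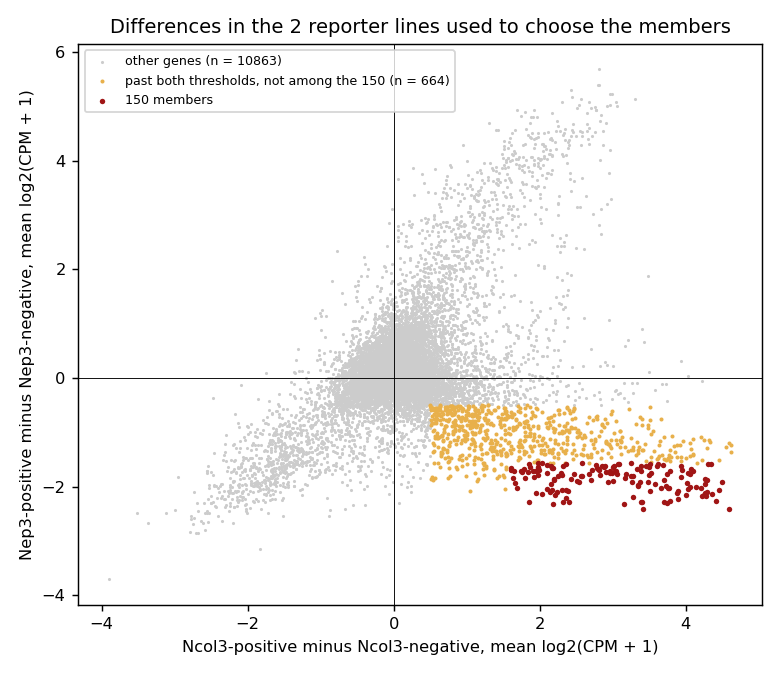
Each point is one of the 11677 gene IDs that reached 10 CPM, placed by the difference of mean log2(CPM + 1) between positive and negative libraries in the Ncol3 line (x axis) and the Nep3 line (y axis). The 150 chosen genes (dark red) fill the lower right corner below the other genes past both thresholds (yellow), most other genes with large differences lie near the rising diagonal, and the shape follows from the choice.

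In the edgeR fit over all 18 libraries, 136 of the 150 genes were called higher in Ncol3-positive cells than in their negative counterpart at an adjusted p-value under 0.05, where 14.8% of the 18976 genes tested were called in that direction. All 150 were called lower in Nep3-positive than in Nep3-negative cells, where 19.2% of tested genes were. The rule used both contrasts, so nothing can be read from these counts about the set. All 150 passed the filter on low counts, and the gene with the fewest reads had 1026 counts over the 18 libraries. The positive libraries of the Ncol3 line all lay above the negative ones in 134 of the 150 genes, where 15.8% of tested genes did so. The positive libraries of the Nep3 line all lay below the negative ones in 133 of the 150, where 13.9% of tested genes did so. The median log2 fold change of the 150 was 2.96 in the Ncol3 line, where the median of all tested genes was -0.05. In the Nep3 line it was -2.0, where the median of all tested genes was -0.02. In the Ncol3 line the values of the 150 ran from 1.17 to 4.52, and in the Nep3 line from -2.75 to -1.64, a much narrower range. The smaller of both differences, which set the rank, was that of the Nep3 line in 139 of the 150 genes and that of the Ncol3 line in 11.

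The 14 genes that were not called in the Ncol3 line are NV2.1001 to NV2.1009, NV2.1011 to NV2.1013, NV2.16342 and NV2.16343. All 14 share a pattern across replicates that is described below. The limit of 150 fell between close neighbours. The last 2 genes inside were NV2.3099, with a rule value of 1.571, and NV2.1055, with 1.570. The first 2 outside were NV2.17626, with 1.566, and NV2.13532, with 1.563. NV2.17626 averaged 381 CPM in Ncol3-positive and 74.3 CPM in Ncol3-negative libraries, and 64.8 CPM in Nep3-positive and 197 CPM in Nep3-negative libraries, levels much like those inside.

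The 150 genes took a large share of the counts of Ncol3-positive cells. Their counts summed to 21.0, 21.4, 37.0 and 38.7% of all counts in Ncol3-positive replicates 1 to 4, against 2.64, 3.11, 6.32 and 8.21% in their Ncol3-negative counterparts. The mean was 29.5 ± 9.64% in Ncol3-positive and 5.07 ± 2.66% in Ncol3-negative libraries (SD, n = 4 each). In Nep3-positive replicates 1 to 5 the share was 3.04, 3.25, 2.87, 3.55 and 2.75%, against 10.8, 10.5, 12.8, 13.5 and 18.7% in Nep3-negative replicates 1 to 5. The mean was 3.09 ± 0.317% in Nep3-positive and 13.3 ± 3.28% in Nep3-negative libraries (SD, n = 5 each). The gates of a line did not overlap, and the share varied least in Nep3-positive cells. Ncol3-negative replicates 1 and 2 lay near the Nep3-positive libraries, and replicates 3 and 4 lay above all of them.

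Part of that share came from few genes. NV2.18817, NV2.13683, NV2.10115, NV2.16335 and NV2.10392 had the highest mean CPM in Ncol3-positive libraries and together held 16.8 ± 6.76% of the counts there, against 2.60 ± 1.42% in Ncol3-negative libraries (SD, n = 4 each). They held 1.52 ± 0.169% in Nep3-positive and 7.35 ± 2.02% in Nep3-negative libraries (SD, n = 5 each). The other 145 genes held 12.8 ± 2.92% in Ncol3-positive and 2.47 ± 1.26% in Ncol3-negative libraries (SD, n = 4 each), an order that the choice of the genes fixes. In all, 43 of the 150 averaged at least 1000 CPM in Ncol3-positive libraries and 34 averaged under 100 CPM. CPM is not divided by transcript length, so it ranks genes by reads and not by transcript number. TMM factors were 0.537 to 0.945 in Ncol3-positive libraries and 1.19 to 1.30 in Ncol3-negative libraries, so scaled CPM values of Ncol3-positive libraries lie above CPM computed without scaling factors.

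**Figure D2:**
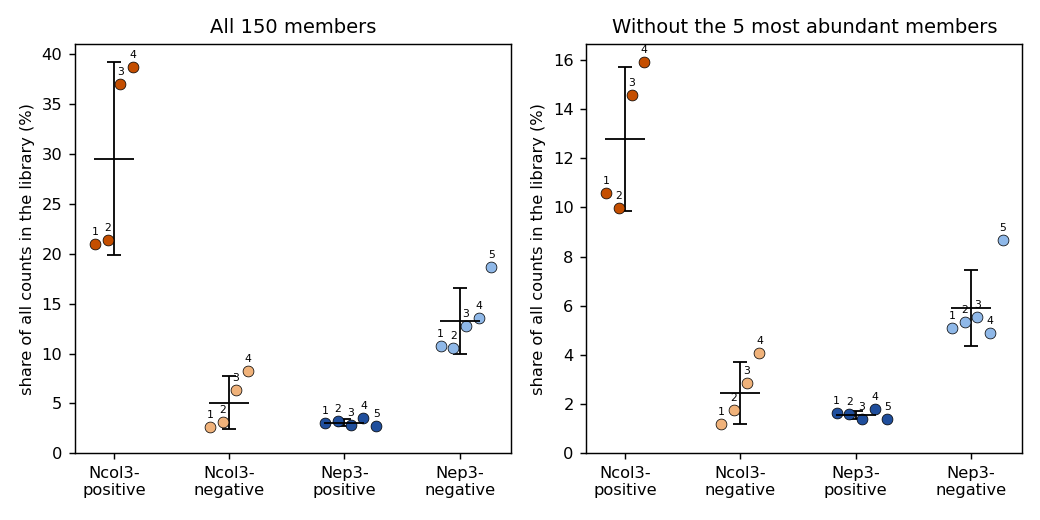
Each point is 1 library, numbered by replicate, and shows the share of all its counts (%) in the 150 genes (left) and in the 145 left after the 5 most abundant are removed (right). Horizontal bars and whiskers are mean ± SD (n = 4 in the Ncol3 groups, n = 5 in the Nep3 groups), and Ncol3-positive replicates 3 and 4 lie above replicates 1 and 2 in both panels.

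NV2.18817 had the highest CPM of the set. It had 35521, 48141, 150635 and 173048 CPM in Ncol3-positive replicates 1 to 4, against 5706, 4189, 11542 and 12828 CPM in Ncol3-negative replicates 1 to 4. In Nep3-positive replicates 1 to 5 it had 4100, 6951, 5396, 5969 and 4757 CPM, against 17608, 15235, 30381, 44508 and 33269 CPM in Nep3-negative replicates 1 to 5. Positive and negative libraries did not overlap in either line, replicates 3 and 4 were the highest on both sides of the Ncol3 line, and replicate 4 was the highest Nep3-negative library. Its log2 fold change was 3.47 for the Ncol3 line (SE 0.50) and -2.41 for the Nep3 line (SE 0.43).

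NV2.13683 followed the same steps with fewer reads. It had 23895, 31047, 108507 and 116283 CPM in Ncol3-positive libraries, against 2863, 2018, 6740 and 7408 CPM in Ncol3-negative libraries. It had 2852, 4674, 3870, 4209 and 3367 CPM in Nep3-positive libraries, against 12436, 10960, 20698, 29788 and 24474 CPM in Nep3-negative libraries. As with NV2.18817, replicate 4 was the highest Nep3-negative library.

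NV2.10115 differed from these in the Nep3-negative libraries. It had 3200, 2318, 2777, 3659 and 3435 CPM in Nep3-positive libraries, against 11550, 10371, 10731, 8795 and 22888 CPM in Nep3-negative libraries. In the Ncol3 line it had 28103, 27287, 62618 and 72566 CPM in positive libraries, against 2233, 2710, 6226 and 8540 CPM in negative libraries. Its highest Nep3-negative library was replicate 5 and its lowest was replicate 4, which was the highest for NV2.18817 and NV2.13683. NV2.16335 and NV2.10392 also had their highest Nep3-negative value in replicate 5, at 11245 and 7419 CPM.

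The highest rule value was that of NV2.3111, at 2.40. This gene had 170, 191, 665 and 867 CPM in Ncol3-positive libraries, against 7.11, 5.17, 26.9 and 38.4 CPM in Ncol3-negative libraries. It had 15.1, 21.1, 23.0, 23.5 and 15.8 CPM in Nep3-positive libraries, against 71.8, 64.1, 124, 165 and 148 CPM in Nep3-negative libraries. Nep3-positive and Ncol3-negative cells thus had nearly the same mean, 19.7 ± 3.99 CPM (SD, n = 5) and 19.4 ± 16.0 CPM (SD, n = 4). Its log2 fold change in the Ncol3 line, 4.52 (SE 0.70), was the highest of the set. NV2.8302, NV2.11826 and NV2.11827, among the 12 highest rule values, had a like profile at mean levels of 139 to 280 CPM in Ncol3-positive libraries, against 8.55 to 12.4 CPM in Ncol3-negative libraries.

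A second profile was seen in NV2.1281 to NV2.1284, 4 genes with neighbouring ID numbers that were also among the 12 highest rule values. NV2.1283 had 387, 303, 452 and 843 CPM in Ncol3-positive libraries, against 9.58, 36.6, 42.0 and 206 CPM in Ncol3-negative libraries. It had 17.9, 18.6, 17.8, 22.7 and 16.2 CPM in Nep3-positive libraries, against 55.2, 134, 122, 70.9 and 173 CPM in Nep3-negative libraries. In NV2.1283 the Ncol3-negative libraries spanned a wide range with replicate 4 on top, and Nep3-positive libraries were even and below 3 of the 4 Ncol3-negative ones. NV2.1281 and NV2.1282 were less even in Nep3-positive libraries. Their log2(CPM + 1) minus the group mean ran from -0.40 to 0.78 and from -0.74 to 0.53 there. NV2.1281 had 3.61, 18.0, 16.6 and 96.1 CPM in Ncol3-negative libraries, which is the same order at both ends. Another profile, that of NV2.1005 and NV2.1007, belongs to the long series of neighbouring IDs described below.

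Comparisons across the lines place the set between the populations. Each shares its libraries with the contrasts used to choose the genes and with the other comparisons across lines, and reporter line and any difference in preparation between the lines cannot be told apart in them. Ncol3-positive over Nep3-negative cells gave a median log2 fold change of 1.54 over the 150 genes, with -0.0016 over all tested genes, and 128 of the 150 were called higher, where 17.3% of tested genes were. The other 22 were not called. In 132 of the 150 the mean CPM of Ncol3-positive libraries was at least 2 times that of Nep3-negative libraries. Nep3-positive over Ncol3-negative cells gave a median of -0.43, with -0.02 over all tested genes, and 30 of the 150 were called lower, where 16.4% of tested genes were. The other 120 were not called. In 98 of the 150 the means of Nep3-positive and Ncol3-negative libraries lay within 1.5-fold of each other. Over all tested genes the quartiles of this log2 fold change were -0.45 and 0.43. Such closeness was thus common among all genes, and the count marks no trait of the set. Nep3-positive over Ncol3-positive cells gave a median of -3.56 and 150 genes called lower, where 16.5% of tested genes were. Nep3-negative over Ncol3-negative cells gave a median of 1.48 and 112 called higher, where 5.12% of tested genes were. The choice of the genes pushes both of these last comparisons in the direction seen, so nothing can be read from their counts about the set.

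The count of 30 for Nep3-positive against Ncol3-negative cells depended on the libraries used. It was 14 with only replicates 1 and 2 of the Ncol3 line and 97 with only replicates 3 and 4. It was 15 without Ncol3-negative replicate 4, 55 without Ncol3-negative replicate 1, and 19 without Nep3-positive replicate 3 or without replicate 5. The count of 112 for Nep3-negative against Ncol3-negative cells was 71 without Ncol3-negative replicate 1 and 62 without Ncol3-negative replicate 2. The share of all tested genes called with these libraries is not given here. Whether calls over all genes shifted alike therefore cannot be read from these counts.

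Some genes stood apart in these comparisons. NV2.3113, NV2.6072, NV2.11820 and NV2.1285 had the highest log2 fold changes of Ncol3-positive over Nep3-negative cells, from 2.55 to 2.31. NV2.3113 had 71.6, 83.4, 293 and 420 CPM in Ncol3-positive libraries, against 22.5, 19.9, 35.7, 55.2 and 39.4 CPM in Nep3-negative libraries. At the other end, NV2.23070, NV2.10686, NV2.19110 and NV2.5234 had values of -0.36, 0.40, 0.41 and 0.47, with an SE of 0.31 for NV2.23070. NV2.23070 had the lowest mean CPM of the set in Ncol3-positive cells, with 7.17, 3.66, 8.81 and 15.2 CPM, against 7.61, 6.06, 11.8, 15.7 and 10.9 CPM in Nep3-negative libraries. These ranges overlap, and those of NV2.10686 did as well, with 1226 to 1915 CPM in Ncol3-positive and 941 to 1562 CPM in Nep3-negative libraries.

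Between Nep3-positive and Ncol3-negative cells, NV2.5028 and NV2.20492 had the lowest log2 fold changes, -2.94 (SE 0.29) and -2.29 (SE 0.24). NV2.5028 had 1.21, 2.26, 2.03, 0.773 and 1.01 CPM in Nep3-positive libraries, against 11.4, 8.58, 9.49 and 13.2 CPM in Ncol3-negative libraries. NV2.20492 had 5.87, 5.52, 4.46, 2.23 and 4.19 CPM in Nep3-positive libraries, against 23.5, 16.5, 22.2 and 22.6 CPM in Ncol3-negative libraries. Neither pair of groups overlapped, and these are the 2 genes in which Ncol3-negative cells had the second highest mean of the 4 groups. NV2.16343 and NV2.16342 followed with -2.24 and -2.18. The highest values were 0.87 in NV2.23070, 0.36 in NV2.11827, 0.36 in NV2.5189 and 0.34 in NV2.23902.

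**Figure D3:**
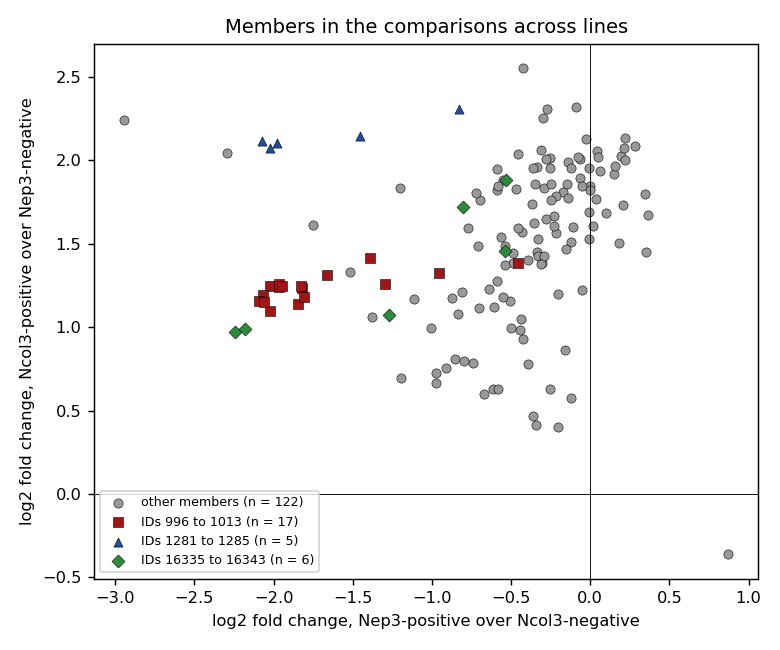
Each point is 1 of the 150 genes, placed by its edgeR log2 fold change of Nep3-positive over Ncol3-negative cells (x axis) and of Ncol3-positive over Nep3-negative cells (y axis), with 3 series of neighbouring ID numbers marked. Of the 150, 149 lie above 0 on the y axis and 129 left of 0 on the x axis, and the marked series reach further left than most of the other 122. With library size alone, 146 of the 150 have a y value above 0.

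Differences between replicates of a group were not used by the rule, which took group means. The mean log2(CPM + 1) of Ncol3-positive replicates 3 and 4 was above that of replicates 1 and 2 in 132 of the 150 genes and below it in 18, which include all 15 members from NV2.998 to NV2.1013. Without 3 series of neighbouring IDs, set aside after their values were seen, 122 genes remain, and in 118 of them both Ncol3-positive replicates 3 and 4 lay above both replicates 1 and 2. The same held in 3986 of 10268 tested genes that averaged at least 10 CPM, or 38.8%. The difference of the means had a median of 1.36 over the 122 genes and 0.08 over the 10268. In Ncol3-negative libraries the same replicates were higher in 111 of the 122, against 19.4% of the 10268 genes, with medians of 1.07 and -0.04. Over all 150 genes the mean of Ncol3-negative replicates 3 and 4 was the higher in 140 and the lower in 10.

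TMM factors moved with this difference, at 0.945 for Ncol3-positive replicate 1, 0.890 for replicate 2, 0.590 for replicate 3 and 0.537 for replicate 4. With counts scaled by library size alone, 100 of the 122 genes still had both Ncol3-positive replicates 3 and 4 above 1 and 2, against 7.53% of the 10268 genes. The mean of replicates 3 and 4 was then the higher in 105 of the 122, and the medians were 0.66 and -0.59. The mOrange2 transcript had 646, 696, 685 and 683 CPM without scaling factors in the Ncol3-positive libraries, against 306, 277, 449 and 403 in the Ncol3-negative libraries. On that scale it did not separate the positive pairs and was higher in negative replicates 3 and 4 than in 1 and 2. With TMM it had 684, 782, 1161 and 1272 CPM in the positive libraries, against 251, 213, 370 and 338 CPM in the negative libraries. It was then higher in replicates 3 and 4 than in 1 and 2 in both gates. The part of the reporter level in the difference was not tested.

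In the Nep3 line the spread was smaller. The range of log2(CPM + 1) over replicates had a median over the 150 genes of 1.58 in Ncol3-positive, 1.62 in Ncol3-negative, 0.61 in Nep3-positive and 1.15 in Nep3-negative libraries. Over the 10268 genes the medians were 0.58, 0.48, 0.55 and 0.60 in the same order. The median range of the set was thus near that of all these genes in Nep3-positive libraries and above it in the other 3 populations. Among the 122 genes, Nep3-negative replicate 5 was the highest Nep3-negative library in 99 and replicate 2 the lowest in 96. The same counts over all tested genes are not given here, so no trait of the set can be read from them. Nep3-negative replicates 4 and 5 were also the libraries with more mOrange2 than the other negative ones, and its part in the levels of the set was not tested.

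**Figure D4:**
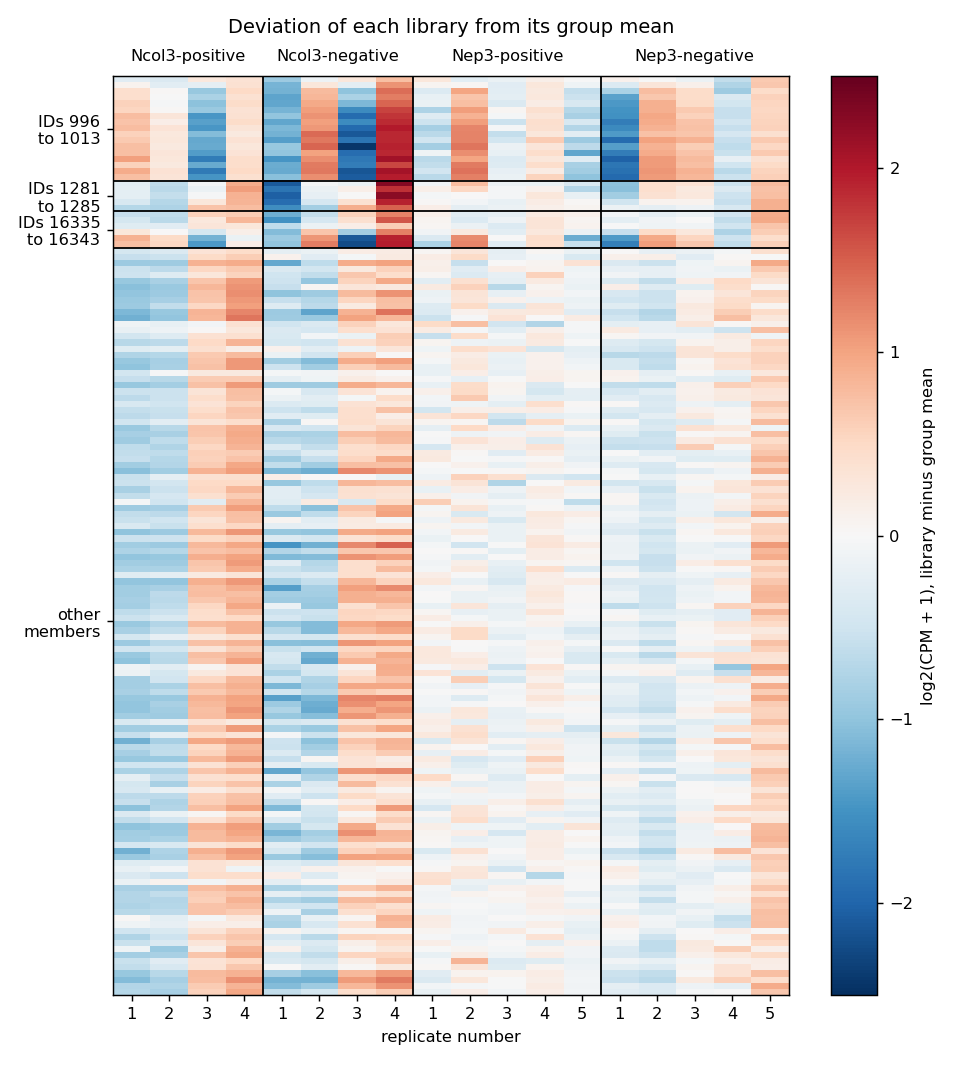
Each row is 1 of the 150 genes and each column 1 library, coloured by log2(CPM + 1) minus the mean of its group, with rows in ID order inside 4 sets and replicate numbers below. Most of the 122 other genes are above their group mean in Ncol3 replicates 3 and 4 of both gates, while most genes from NV2.996 to NV2.1013 are low in Ncol3-positive replicate 3, in Ncol3-negative replicates 1 and 3 and in Nep3-negative replicate 1.

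Steady genes also occurred. NV2.20520, NV2.22155 and NV2.3555 had the smallest range over Ncol3-positive libraries. NV2.20520 had 37.8, 45.2, 40.2 and 46.6 CPM in Ncol3-positive libraries, against 11.1, 13.5, 13.2 and 15.4 CPM in Ncol3-negative libraries. NV2.22155 had 718, 668, 870 and 862 CPM in Ncol3-positive libraries, against 58.9, 78.2, 134 and 181 CPM in Ncol3-negative libraries. In NV2.22155 the Ncol3-negative libraries spread more widely than the positive ones. The largest ranges over Ncol3-positive libraries were those of NV2.1009, NV2.1012, NV2.3113 and NV2.3111.

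Members of the set often had neighbouring ID numbers. Of the 150 genes, 55 (36.7%) had another member at the next or previous number, in 17 runs, the longest of which held 14 IDs. Among the 150 genes ranked next, 24 (16%) did, in 12 runs of at most 2 IDs. Whether ID order follows position in the genome is not given in the sources used here. The longest run was NV2.996 to NV2.1009. NV2.1010 is listed at 0 in all libraries, and NV2.1011 to NV2.1013 are members too, so 17 of these 18 IDs are in the set. NV2.993 to NV2.995, NV2.1014 and NV2.1015 are not.

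The first IDs of this series had many reads. NV2.996 had 1994, 1881, 2918 and 3104 CPM in Ncol3-positive libraries, against 170, 295, 390 and 544 CPM in Ncol3-negative libraries. NV2.997 had 5876, 4609, 4714 and 7192 CPM in Ncol3-positive libraries, against 412, 1132, 781 and 2037 CPM in Ncol3-negative libraries. In the Nep3 line NV2.996 had 315, 217, 233, 288 and 259 CPM in positive libraries, against 933, 850, 779, 564 and 1356 CPM in negative libraries. The gates given did not overlap for either gene.

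From NV2.998 on, the 15 genes followed another pattern over the libraries. NV2.1007 had 162, 113, 39.2 and 116 CPM in Ncol3-positive libraries, against 8.43, 49.3, 2.41 and 68.2 CPM in Ncol3-negative libraries. In Nep3-positive libraries it had 3.37, 18.7, 6.08, 8.67 and 3.99 CPM, against 13.6, 68.2, 57.5, 23.6 and 53.7 CPM in Nep3-negative libraries. Ncol3-positive replicate 3 was the lowest of its group in all 15 genes, Ncol3-negative replicate 4 and Nep3-positive replicate 2 were the highest of theirs in all 15, and both gates overlapped in both lines for NV2.1007. In NV2.1009 the range was wider still, with 118, 70.4, 16.6 and 79.3 CPM in Ncol3-positive libraries, against 3.97, 29.9, 2.99 and 57.9 CPM in Ncol3-negative libraries. The highest over the lowest Ncol3-negative library was a median of 14.4-fold over the 15 genes and at most 28.3-fold, against a median of 2.7-fold over the 122 genes outside the 3 series.

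**Figure D5:**
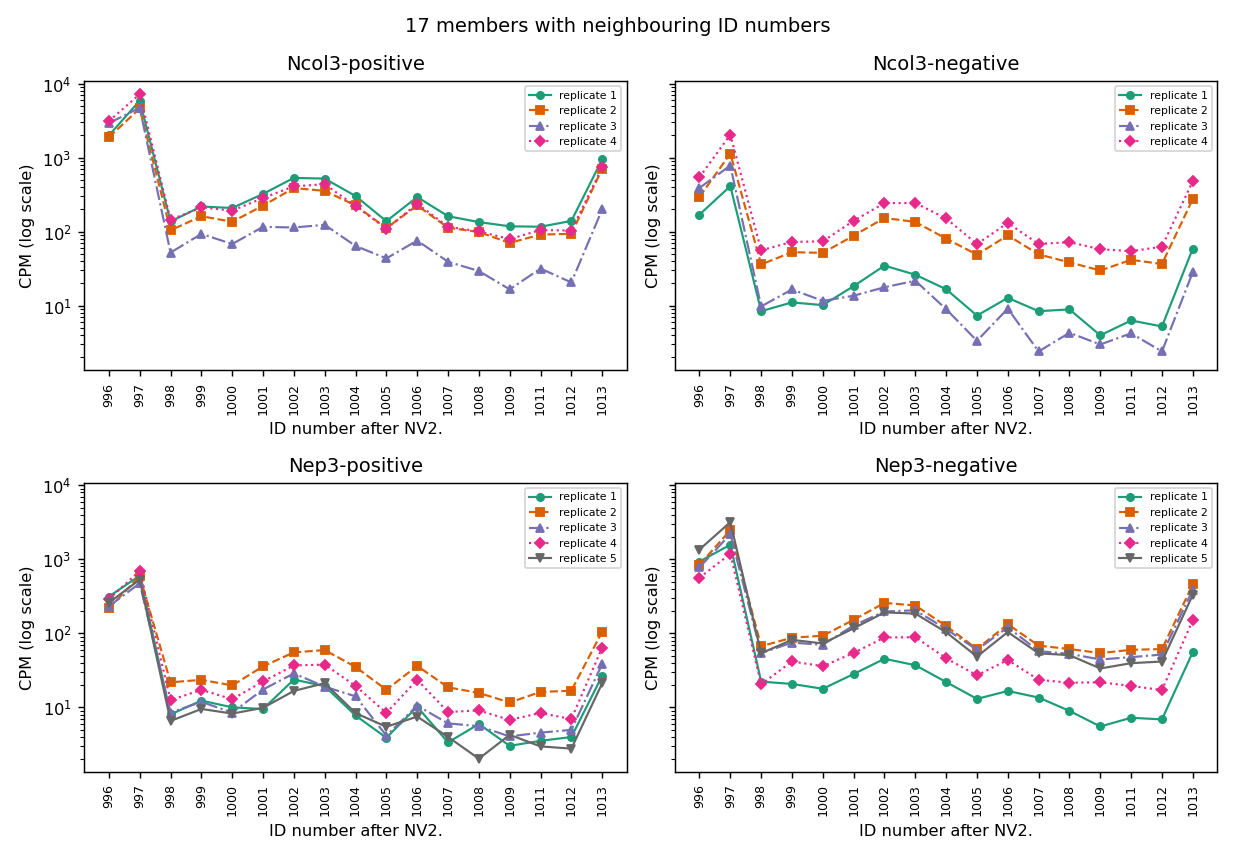
CPM on a log axis of the 17 members from NV2.996 to NV2.1013, in ID order, with 1 line per library and 1 panel per sorted population. Lines of a panel run nearly parallel from NV2.998 on but are far apart, most of all in Ncol3-negative cells, where replicates 1 and 3 lie below replicates 2 and 4.

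The pattern can be measured by the correlation, over the 18 libraries, of each gene's deviation from its group mean with the mean deviation of the longest run without that gene. All genes share the same libraries and their depths, and the r values are a description. For the members from NV2.998 to NV2.1009 r was at least 0.9, for NV2.996 it was 0.24, and over the 122 genes outside the 3 series its median was -0.01. Of the 18961 other genes tested, 17 reached 0.9. They were 6 members, NV2.1011, NV2.1012, NV2.1013, NV2.16338, NV2.16342 and NV2.16343, and 11 genes outside the set. Of those 11, 6 have consecutive IDs, NV2.17256 to NV2.17261, with r from 0.90 to 0.93, and none of these 6 was called in either line. Which transcripts these IDs stand for, and whether reads are shared between them, was not tested.

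Within a library the ratio of NV2.1013 to NV2.996 shows the same in other terms. It was 0.474, 0.375, 0.0684 and 0.238 in the Ncol3-positive libraries, against 0.348, 0.933, 0.0726 and 0.884 in the Ncol3-negative libraries. It was 0.0849, 0.486, 0.166, 0.223 and 0.0817 in Nep3-positive replicates 1 to 5, against 0.0599, 0.539, 0.498, 0.267 and 0.244 in Nep3-negative replicates 1 to 5. The range of the ratio within each gate was wider than the distance between the means of the gates, and the ratio was lowest in replicate 3 of both Ncol3 gates.

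The set holds a second such series, NV2.16335 to NV2.16343, with 6 members. NV2.16335, at its start, had 15150, 14497, 33814 and 35391 CPM in Ncol3-positive libraries, against 716, 1115, 2504 and 3945 CPM in Ncol3-negative libraries. NV2.16343, at its end, had 716, 605, 155 and 475 CPM in Ncol3-positive libraries, against 58.2, 282, 23.7 and 454 CPM in Ncol3-negative libraries. NV2.16335 thus followed the majority of the set, with replicates 3 and 4 on top, and NV2.16343 followed the 15 genes of the long series, with replicate 3 the lowest in both gates. NV2.1281 to NV2.1285 form another series. NV2.1285 had 3316, 3178, 8887 and 9265 CPM in Ncol3-positive libraries, against 112, 184, 620 and 922 CPM in Ncol3-negative libraries. In NV2.1284 the values were 7422, 5968, 11989 and 17708 CPM in Ncol3-positive libraries, against 202, 568, 981 and 2881 CPM in Ncol3-negative libraries. All 5 genes of that series were called higher in Ncol3-positive than in Nep3-negative cells, where 128 of the 150 and 17.3% of tested genes were. Of the 5, 4 were called lower in Nep3-positive than in Ncol3-negative cells, where 30 of the 150 and 16.4% of tested genes were.

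NV2.11816 to NV2.11827 hold 7 members in 12 IDs and did not share that pattern. NV2.11820 had 1462, 1723, 4572 and 4993 CPM in Ncol3-positive libraries, against 59.7, 58.4, 267 and 251 CPM in Ncol3-negative libraries. It had 128, 137, 133, 149 and 131 CPM in Nep3-positive libraries, against 444, 368, 591, 664 and 954 CPM in Nep3-negative libraries. Replicates 3 and 4 were the highest in both Ncol3 gates, and Nep3-positive libraries were even. All 7 were called higher in Nep3-negative than in Ncol3-negative cells, as were 112 of the 150 and 5.12% of tested genes. The choice of the genes favours that direction. The log2 fold changes of the 7 for Nep3-positive over Ncol3-negative cells lay between -0.51 and 0.36.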

How the data were processed

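The authors deposited 1 table of raw counts per gene ID, which was read as 18 columns by title. Trimmomatic, STAR 2.7.10a and featureCounts 2.0.1 are named in the submitters' processing notes. Genome build, annotation and strand setting are not given in the sources used here, so overlapping or near-identical genes may share reads. Of 24538 rows, 773 had no count, and 1 row is mOrange2. The 150 genes and all lists were chosen with earlier results of these data known. Libraries were scaled with TMM, genes filtered with filterByExpr (18976 kept), and edgeR 4.0.16 in R 4.3.3 fitted all 18 libraries in 1 quasi-likelihood model of 4 group means. Adjusted p-values (Benjamini-Hochberg, over all tested genes, two-sided) under 0.05 are calls. DESeq2 1.42.0 and limma 3.58.1 gave alternatives, as did other scalings, filters and left-out libraries. The fit was tested on simulated data. Titles number Nep3-positive libraries 1 to 5, while their descriptions all end in replicate 1 and the series text gives 4 per condition, and titles were followed. That text calls the replicates biological but ties none to animals, so p-values measure the spread between these libraries, which may in part be technical. No 2 libraries of the same group agreed within sampling noise, and pairs from different groups were not compared.

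Genes were named by rule. These are the 12 highest rule values, the 5 highest mean CPM in Ncol3-positive cells, the 4 highest and 4 lowest log2 fold changes in each of 2 comparisons across lines, the 4 largest and 3 smallest ranges over Ncol3-positive libraries, the 2 genes on either side of the limit and the longest run of IDs. Other IDs were chosen after their values were seen. Totals of 5463324 to 15269119 counts set the precision, and a fold change of a gene near 1 CPM rests on few reads.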

Additional observations from a re-analysis of the deposited data

Results flagged for a closer look

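Libraries were checked for single values far from the rest of their group in 196 groups of values. These were the values of the named genes of the set, its summed share and mOrange2 in each population. Of the 196, 10 stood apart. The groups share libraries and hold genes that move together, so no rate under chance is set against this count. The reason for each was not tested. Of the 10, 6 were high values of Nep3-negative replicate 5. NV2.10115 had 22888 CPM there and 8795 to 11550 CPM in the other Nep3-negative libraries. NV2.16335 had 11245 CPM there and 4247 to 5631 CPM in the others. NV2.10392 had 7419 CPM there and 2509 to 3197 CPM in the others. NV2.1285 had 2054 CPM there and 835 to 1010 CPM in the others. NV2.10686 had 1562 CPM there and 941 to 1108 CPM in the others. NV2.19110 had 278 CPM there and 155 to 178 CPM in the others. That library had the highest summed share of the 150 genes in its group, 18.7% of counts, and 131 CPM of mOrange2.

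High values of Ncol3-negative replicate 4 were found in NV2.1281, at 96.1 CPM with 3.61 to 18.0 CPM in the other Ncol3-negative libraries, and in NV2.1283, at 206 CPM with 9.58 to 42.0 CPM in the others. NV2.1281 was also high in Nep3-positive replicate 2, at 15 CPM with 6.09 to 7.86 CPM in the other Nep3-positive libraries. NV2.20520 was high in Nep3-positive replicate 1, at 9.42 CPM with 5.78 to 6.69 CPM in the others.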

How the results depend on the processing

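The number of the 150 genes called lower in Nep3-positive than in Ncol3-negative cells moved most. It was 30 with edgeR, 52 with library size alone, 47 with the DESeq2 Wald test, 14 with only replicates 1 and 2 and 97 with only replicates 3 and 4 of the Ncol3 line, and 15 to 55 when 1 library was left out. Left-out libraries gave 62 to 122 for Nep3-negative against Ncol3-negative, 134 to 140 for the Ncol3 line, 140 to 150 for the Nep3 line, and 120 to 131 for Ncol3-positive against Nep3-negative. The shares of all tested genes called in these other fits are not given here. With library size alone 527 genes passed both thresholds, not 814, and 115 of the 150 were chosen again. Of the 150, 125 were chosen again with a pseudocount of 5 and 136 to 147 without single libraries. The whole list chosen without Nep3-positive replicate 2, with its genes from outside the 150, summed to 2.77% of Nep3-positive counts. Such lists gave 2.77 to 3.25% over all left-out libraries. Library size alone gave a Ncol3-line median log2 fold change of -0.72 over all genes and of 2.19 over the 150. Alternatives for mOrange2 and for the replicate patterns were chosen after seeing the data. With only replicates 1 and 2, or 3 and 4, of the Ncol3 line, mOrange2 gave 1.66 (edgeR adjusted p = 0.148) and 1.65 (edgeR adjusted p = 0.111). The number of genes of the set that followed the long run with r of at least 0.9 was 18 in all its alternatives. No log2 fold change of a named gene within a line was recorded with a changed sign, which the choice of the genes favours. The counts and summed shares were compared by size only. Of the comparisons of named genes within lines, 75 lost their call or had no adjusted p-value, 14 gained a call and 2557 stayed the same. Signs of single genes did change across lines with library size alone, which put 10 of the 150 genes, not 21, above 0 for Nep3-positive over Ncol3-negative cells, and 146, not 149, for Ncol3-positive over Nep3-negative cells.

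The labels do not say that same-numbered libraries of a line are paired. Over all genes their deviations correlated at 0.033 to 0.300 in the Ncol3 line and at -0.031 to 0.327 in the Nep3 line, and not every library matched its own number best. Ncol3-positive replicates 1 and 2 both matched Ncol3-negative replicate 2 best, and replicates 3 and 4 both matched Ncol3-negative replicate 3. Over the 150 genes the values were -0.23, 0.85, 0.95 and 0.0092 for Ncol3 replicates 1 to 4 and 0.70, 0.68, -0.028, -0.32 and 0.26 for Nep3 replicates 1 to 5. The numbers were therefore not taken as pairs. With the replicate block 141 and 150 of the 150 genes were called in the Ncol3 and the Nep3 line. The rule used both contrasts, and the share of all tested genes called in that fit is not given here. Nothing can therefore be read from these 2 counts about the set. No paired analysis was made for comparisons across lines, because the labels tie no library of the Ncol3 line to a library of the Nep3 line. Low genes such as NV2.23070 are limited by depth.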

Other observations

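Outside the set, NV2.17256 to NV2.17261 are 6 IDs whose deviations from the group means followed those of NV2.998 to NV2.1009 over the 18 libraries. NV2.17256, the most abundant, averaged 699 CPM in Ncol3-positive and 563 CPM in Ncol3-negative libraries, and 226 CPM in Nep3-positive and 375 CPM in Nep3-negative libraries. Its highest over lowest library was 5.38-fold within Ncol3-negative cells, a group in which the 6 IDs ranged from 5.38-fold to 7.76-fold. NV2.6919, which has no such neighbours, had r = 0.94 with the long run and averaged 168 CPM in Ncol3-positive and 137 CPM in Ncol3-negative libraries. These genes were chosen for their likeness to the run, and no explanation for it was tested.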
